A study of Mus musculus with 3 samples.

Results

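The cells described here are the Cxcl13-expressing fibroblasts of the adult mouse lacrimal gland (LG), the gland that secretes the watery layer of tears. They were picked by unique molecular identifiers (UMIs, each marking 1 captured mRNA molecule) in single cell RNA sequencing (scRNAseq). A member had at least 4 UMIs over Col1a1, Col1a2, Col3a1, Dcn and Lum, at least 2 UMIs of Cxcl13, at most 1 UMI over the adventitial genes Pi16, Dpp4 and Ackr3, no UMI of Pdgfrl or Fxyd6, and no UMI of Ptprc, Epcam, Pecam1 or Cdh5. The rule found 119 cells among the 19592 barcodes kept, each above 500 UMIs and 200 genes and below a mitochondrial share of 15%. Of these, 71 came from the female library, 37 from male library 1 and 11 from male library 2. Since the 15 genes of the rule chose the cells, their values below are a description and carry no test.

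All 3 libraries were made from C57BL/6J mice aged 2 months, 1 from females and 2 from males, and each pooled the 6 LGs of 3 animals, so that no value belongs to a single mouse. The glands were digested with collagenase and dispase and loaded on the 10x Genomics droplet system. The female library differed from the male ones also in its sequencing core and day, with which sex coincides, so the effects of these cannot be told apart and sex was not tested. The kept cells held 39455793 to 60331289 UMIs per library, and transcripts of tear products, which acinar cells secrete, made up 56.4% of UMIs in the female library and 78.1% and 80.8% in the male libraries, and these genes and the mitochondrial ones were left out of the levels below. Levels are in CPM, a gene's UMIs over all remaining UMIs of the summed cells of 1 library, scaled to counts per 1e6.

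CXCL13 is a chemokine that draws B cells and some follicular T cells through the receptor CXCR5. In lymph nodes and spleen it is made by follicular dendritic cells and by stromal cells of the B cell follicle, and in inflamed glands it is known from ectopic lymphoid clusters. Fibroblasts of an organ are commonly divided into adventitial cells, which lie around larger vessels and ducts and carry Pi16 and Dpp4, and parenchymal cells, which lie among the secretory units. Below, the members are called Cxcl13 fibroblasts.

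Cxcl13 (ENSMUSG00000023078) lies on the plus strand of GRCm38 at chr5:95956951-95961068. The annotated start regions of Cxcl13, a gene of the rule, and of 2 further secreted factors are printed. These factors, Ccl19 and C3, were called higher in Cxcl13 fibroblasts in the main comparison, but not in all alternatives. Each window runs from 250 bases before to 50 bases after the RefSeq start on GRCm38.p6, at chr5:95956689-95956988 (plus strand) for Cxcl13, chr4:42756316-42756615 (minus strand) for Ccl19 and chr17:57228087-57228386 (minus strand) for C3, and capitals mark the letters TATAAA.
Cxcl13: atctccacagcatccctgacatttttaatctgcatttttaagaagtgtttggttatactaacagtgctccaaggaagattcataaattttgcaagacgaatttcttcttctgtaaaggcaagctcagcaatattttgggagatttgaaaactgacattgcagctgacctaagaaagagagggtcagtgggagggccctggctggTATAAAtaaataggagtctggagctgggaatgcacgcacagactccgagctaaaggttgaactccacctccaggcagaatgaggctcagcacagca
Ccl19: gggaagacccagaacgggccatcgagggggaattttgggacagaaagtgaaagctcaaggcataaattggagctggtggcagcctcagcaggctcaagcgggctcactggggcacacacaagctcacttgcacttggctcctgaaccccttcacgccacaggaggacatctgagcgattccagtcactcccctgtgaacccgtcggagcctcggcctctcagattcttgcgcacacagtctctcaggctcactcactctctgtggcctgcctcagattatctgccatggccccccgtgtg
C3: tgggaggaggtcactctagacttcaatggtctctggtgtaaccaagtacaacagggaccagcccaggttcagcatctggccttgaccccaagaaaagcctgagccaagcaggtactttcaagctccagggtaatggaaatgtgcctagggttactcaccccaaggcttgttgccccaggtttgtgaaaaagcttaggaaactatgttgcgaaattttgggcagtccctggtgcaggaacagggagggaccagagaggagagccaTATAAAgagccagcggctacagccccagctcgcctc
TATAAA began 46 bases before the start of Cxcl13. In C3 it began at base 15, counting the annotated start as the first base. It was not found on either strand of the Ccl19 window. Of 32851 RefSeq windows of this length, 13.62% held TATAAA on either strand. The NF-kappaB consensus was found in none of the 3 windows and in 4.505% of all windows, which says only that these letters are absent from these 300 bases.

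Cxcl13 was almost wholly a fibroblast transcript in these glands. Of the 1111 Cxcl13 UMIs in kept cells, 99.2% lay in cells with at least 4 UMIs of the fibroblast genes, and 67.1% in Cxcl13 fibroblasts. The kept cells outside the fibroblasts held 4, 3 and 2 Cxcl13 UMIs. Values in this order are always those of the female library, then of male libraries 1 and 2. Of the 170 cells with at least 2 Cxcl13 UMIs, all had the fibroblast genes. A lineage gene removed 12 of them, the adventitial genes 38 and Pdgfrl or Fxyd6 1.

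Free RNA was checked in cells that should lack the gene. Among cells with Ptprc, the pan-leukocyte gene, and under 4 fibroblast UMIs, Cxcl13 was found in 0.167% of 1795 cells in the female library, and in 0 of 334 and 0 of 341 cells in the male libraries, which allows up to 0.898% and 0.880%. Among cells with Epcam, an epithelial gene, the shares were 0.0591%, 0.149% and 0.0789%. Fibroblasts that met every term other than the Cxcl13 term had Cxcl13 in 7.64%, 7.65% and 6.03%, at median depths of 3071, 1514 and 1275 UMIs against 3283, 1724 and 1372 in the Ptprc cells. The fibroblast shares therefore stood above those of the Ptprc cells at similar depths. They also stood above those of the Epcam cells, whose median depths were 4190, 4308 and 5983 UMIs. Uncalled barcodes of 10 to 100 UMIs held 0, 2 and 2 Cxcl13 UMIs, or 0, 8.63 and 11.6 CPM over all their UMIs. The part of free RNA in the fibroblast shares was not tested. After each cell was thinned to 1000 UMIs the fibroblast shares were 4.501% of 1444, 6.24% of 577 and 4.28% of 327 cells, with 61, 129 and 137 shallower cells left out.

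**Figure D1:**
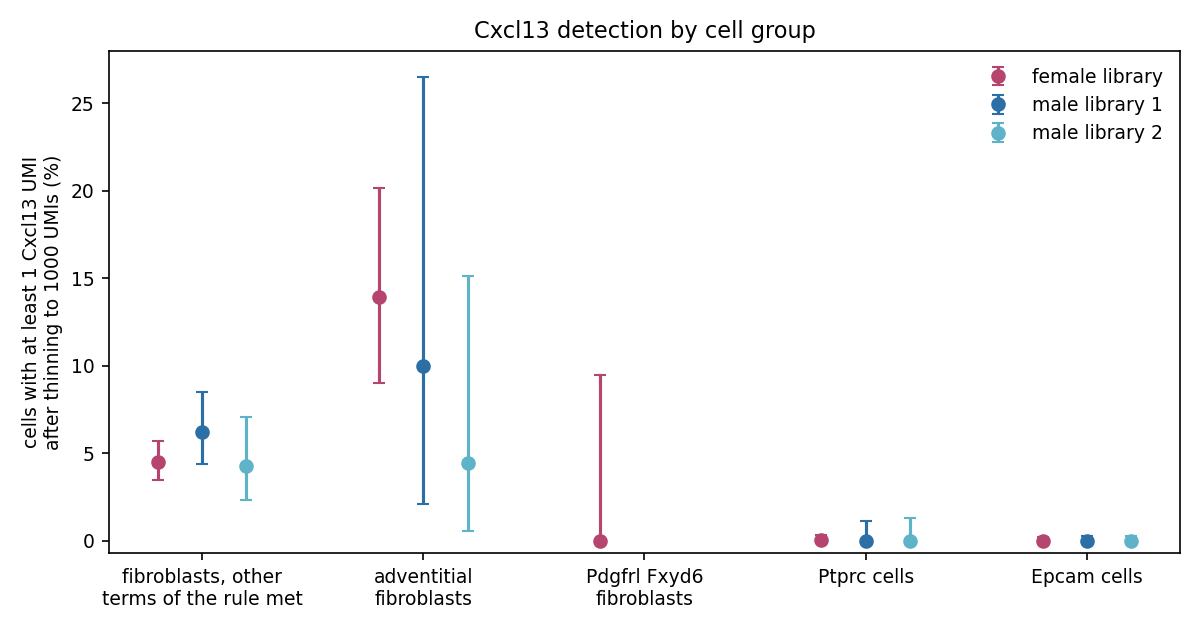
The plot gives, for each library, the percent of cells with at least 1 Cxcl13 UMI after thinning to 1000 UMIs in 5 groups of cells, with exact 95% binomial intervals that cover counting error only; groups under 20 cells are not drawn. Fibroblasts sit at 4.28% to 6.24%, adventitial fibroblasts at 4.44% to 13.9%, and Ptprc and Epcam cells at or near 0.

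Cxcl13 fibroblasts made up 4.04% of 1759 fibroblasts in the female library (exact 95% interval 3.17% to 5.06%), 4.90% of 755 in male library 1 (3.47% to 6.69%) and 2.08% of 528 in male library 2 (1.04% to 3.70%). The intervals of the female library and male library 1 overlapped, and those of the 2 male libraries met only between 3.47% and 3.70%. The widest gap in share lay between the 2 male libraries, and no difference between libraries was tested. Fibroblasts with at least 1000 UMIs, 1696, 623 and 382 cells, were also thinned to 1000 UMIs. Of them, 1.83%, 2.89% and 1.31% held at least 2 Cxcl13 UMIs after thinning and met the rule's other terms in their full counts.

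Cxcl13 itself was spread unevenly over the members. Per cell it ran from 2 to 77 UMIs with a median of 4 in the female library, from 2 to 44 with a median of 3 in male library 1, and from 2 to 7 with a median of 2 in male library 2. The 5 highest cells held 43.5%, 41.5% and 68.4% of their library's Cxcl13 UMIs in members, and 12 of 119 members had 10 or more. Just inside the threshold were 39 members with exactly 2 UMIs, and just outside were 78 fibroblasts with 1 UMI that met every other term. Cxcl13 stood at 3028, 6098 and 3202 CPM in members and at 13.6, 30.9 and 47.4 CPM in the other fibroblasts.

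No member shared its barcode with another library, although 30, 27 and 28 kept barcodes were shared. Members and other fibroblasts were alike in depth, with medians of 3159, 1682 and 1154 UMIs against 3065, 1504 and 1275. By doublet score, 2 members, both in male library 2, fell in the share expected to be doublets. A single member of male library 2 with 38359 UMIs held 70.2% of that library's member UMIs, and 77.3% of the member UMIs there were tear products. The male library 2 values of members therefore rest on few counts, 11868 UMIs in all, and single UMIs there move a level by 84.3 CPM.

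The label's markers were checked next. Lum, a small proteoglycan of collagen fibrils and a gene of the rule, stood at 1999, 2231 and 590 CPM in Cxcl13 fibroblasts and at 1906, 1814 and 1286 in other fibroblasts. Serpinf1, the secreted protein PEDF, was at 1294, 1636 and 337 CPM against 1263, 1621 and 1191, a log2 fold change of -0.37 (SE 0.32, edgeR adjusted p = 0.874). Mfap4, a microfibril-associated protein, had 3, 0 and 0 UMIs in members. Its summed level was 0.389 times that of other fibroblasts, with a counting interval of 0.0793 to 1.16. Mfap4 was instead at 1584, 3883 and 2401 CPM in the Pdgfrl Fxyd6 fibroblasts. Mfap4 and Serpinf1 were therefore not shown to be higher in these cells, and Cxcl13 and Lum, the further markers of the label, are genes of the rule. Dcn, the small proteoglycan decorin, was found in all 119 members and Pdgfra, a receptor of most fibroblasts, in 61.

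The main comparison set Cxcl13 fibroblasts against the 2556 other fibroblasts of the same libraries, which met the same terms but had 0 or 1 Cxcl13 UMI. UMIs were summed per library, and edgeR's quasi-likelihood test with the library as a block was run on 3687 genes, with Benjamini-Hochberg adjustment. Cxcl13 fibroblasts were higher in the complement genes C3 and C4b, in 5 of 9 tested adventitial genes, among them C3, Fn1 and Ly6c1, and in Ccl19, and lower in the parenchymal genes Crabp1, Cxcl14 and Col15a1 and in 7 of 24 immediate early genes. Of the genes tested 31 were higher, which is 0.841%, and 62 were lower, which is 1.68% (2.52% in all). The median log2 fold change over all genes was -0.10. These calls rest mostly on the female library and male library 1: 4 genes were higher and 5 lower without the female library, 8 and 10 without male library 1, and 67 and 80 without male library 2, when 31 of the 31 higher and 58 of the 62 lower genes were called again. Of the higher genes named below, Ly6c1, C4b and Vegfd passed without the female library, and Ly6c1, Pcolce2, Il1r2, Vit and Olfml2b passed without male library 1. Of the lower genes named below, Crabp1 passed without the female library, and Myh11, Gm13889, Acta2, Tagln, Ccn2 and Cd74 without male library 1. With free RNA subtracted, 11 of the 31 higher and 21 of the 62 lower genes were called again. All 30 and 54 with a value kept their direction. Ly6c1, C4b, Pcolce2, Il1r2, Vit, Olfml2b and Epyc passed in that setting. C3, Fn1, Ccl19, Ccl8, Cd34, Sema3c, Sfrp2 and Igfbp5 did not, nor did Crabp1, Cxcl14, Col15a1, Fos and Egr1.

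Of the complement genes, 2 were called. C3, on which all complement pathways converge, was at 3378, 3867 and 2106 CPM in Cxcl13 fibroblasts and at 561, 1077 and 1398 in other fibroblasts. It was higher in 3 of 3 libraries and no member library fell within the range of the others (log2 fold change 1.64, SE 0.33, edgeR adjusted p = 0.000116). The share of all tested genes without such overlap was not counted. Lack of overlap is therefore a description, here and below. C4b, a component of the classical and lectin pathways, stood at 289, 625 and 253 CPM against 30.3, 80.0 and 106 (log2 fold change 2.79, SE 0.33, edgeR adjusted p = 2.33e-14). Its call was lost without male library 1 (log2 fold change 2.47, edgeR adjusted p = 0.0552). The near-identical neighbour C4a can share reads with it, so the split between the copies is uncertain. Of 11 complement genes tested, these 2 were higher and none lower, with a median log2 fold change of 0.05. C1ra, C1s1, Cfb and Serping1 gave log2 fold changes of 0.37, -0.07, 0.04 and -0.02 and did not pass. For C3 the call was lost without the female library (edgeR adjusted p = 0.328) and without male library 1 (edgeR adjusted p = 1.00), with log2 fold changes of 1.08 and 1.36. The C3 call was also lost with free RNA subtracted (log2 fold change 1.51, edgeR adjusted p = 0.626). At 3 or more Cxcl13 UMIs it was lost too (log2 fold change 1.52, edgeR adjusted p = 0.0857). C3 was called in 14 of 20 alternatives.

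Of 9 tested genes from a list of adventitial fibroblast genes that the rule did not use, 5 were higher and none lower. The list's median log2 fold change was 1.17. Ly6c1, a GPI-anchored surface protein, was at 343, 506 and 1095 CPM against 43.3, 127 and 153 (log2 fold change 2.53, SE 0.31, edgeR adjusted p = 9.74e-13), and it was called in all 20 alternatives run. The Ly6 genes are close copies, so reads may be split between them. Fn1, the matrix protein fibronectin, was at 783, 1279 and 843 CPM against 78.6, 422 and 321 (log2 fold change 2.14, SE 0.32, edgeR adjusted p = 7.9e-09), without overlap between the groups. Cd34, a sialomucin of fibroblast and vascular progenitors, rose by 1.17 (SE 0.31, edgeR adjusted p = 0.0121). Sema3c, a secreted guidance protein, was higher in 2 of 3 libraries, at 126, 89.2 and 0 CPM against 34.3, 56.4 and 61.4 (log2 fold change 1.49, SE 0.41, edgeR adjusted p = 0.0189). Without the female library the log2 fold change of Sema3c was -0.0048, so that library decides it. The rule's own adventitial genes chose the cells, so their values are a description only. Of 119 members, 30 carried the 1 UMI that the rule allows. Among fibroblasts that met the terms other than Cxcl13, 30 of 189 with such a UMI were members, and 89 of 2486 with none. Cells with 0 such UMIs in both groups, a setting chosen after the data were seen, left 21 genes higher and 32 lower of 3204, and 18 of the 31 higher genes were called again. In this setting Cd34 and Sema3c no longer passed (edgeR adjusted p = 0.0853 and 0.562), while C3, Fn1 and Ly6c1 did.

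Among the genes with the largest differences were matrix proteins and receptors of several kinds. Pcolce2, an enhancer of procollagen processing, was at 469.6, 208 and 84.3 CPM against 37.1, 54.6 and 47.4 (log2 fold change 3.02, SE 0.35, edgeR adjusted p = 1.69e-14). Il1r2, the decoy receptor for interleukin-1, was at 157, 268 and 337 CPM against 17.3, 74.6 and 64.2 (log2 fold change 2.57, SE 0.37, edgeR adjusted p = 3.37e-09). Neither gene overlapped between the groups, but the Pcolce2 level of members in male library 2 was that of 1 UMI. The matrix proteins Vit and Olfml2b gave log2 fold changes of 2.71 (SE 0.42) and 2.52 (SE 0.38), and the small proteoglycan Epyc gave 1.74 (SE 0.34), each higher in 3 of 3 libraries. Thbd, the thrombin receptor thrombomodulin, rose by 1.51 (SE 0.35, edgeR adjusted p = 0.00165). Ugp2, an enzyme that makes UDP-glucose, and Prnp, the prion protein, each rose by 1.44 (edgeR adjusted p = 0.00645 and 0.00267). Without the female library, Pcolce2, Il1r2, Vit, Olfml2b, Epyc and Fn1 were no longer called, at adjusted p-values from 0.107 to 0.629 by edgeR. The log2 fold changes were then 1.54 for Pcolce2, 1.82 for Il1r2 and 1.32 for Fn1, and 2.29, 2.26 and 1.88 for Vit, Olfml2b and Epyc.

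**Figure D2:**
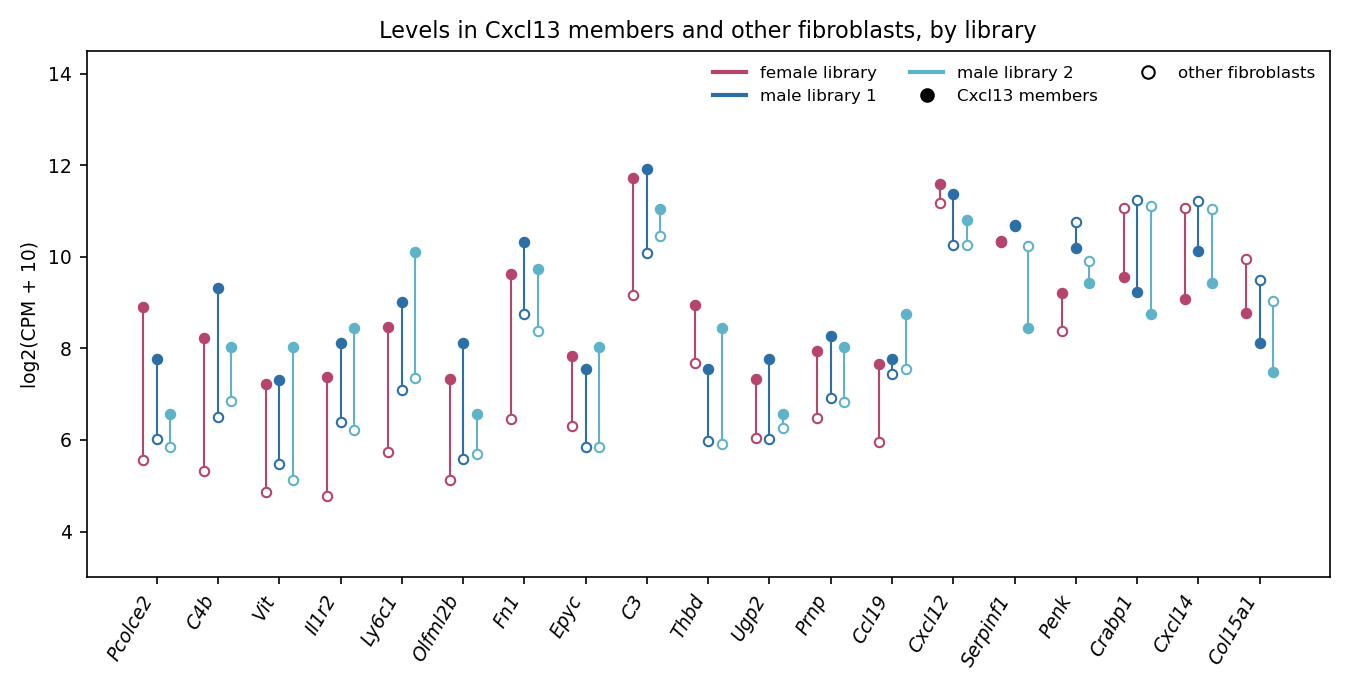
Each vertical line joins the level of 1 gene in other fibroblasts (open point) and in Cxcl13 fibroblasts (filled point) of the same library, on the log2(CPM + 10) scale. The 12 genes at the left, Ccl19 and Cxcl12 are higher in members of all 3 libraries, Crabp1, Cxcl14 and Col15a1 lower in all 3, and Serpinf1 and Penk go both ways.

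Parenchymal fibroblast genes went the other way. Of 10 tested, 3 were lower and none higher, and 0 had a fold change above 0 (median log2 fold change -0.56). Crabp1, a carrier of retinoic acid, was at 747, 595 and 421 CPM in Cxcl13 fibroblasts against 2133, 2410.3 and 2202 (log2 fold change -1.94, SE 0.35, edgeR adjusted p = 8.1e-06). Cxcl14, a chemokine of epithelia and fibroblasts, was at 529.8, 1101 and 674 CPM against 2144, 2376 and 2101 (log2 fold change -1.72, SE 0.34, edgeR adjusted p = 0.0001). The groups did not overlap for either gene. Col15a1, a collagen of basement membrane zones, fell by 1.36 on the log2 scale (SE 0.36, edgeR adjusted p = 0.00921). Penk, which encodes the enkephalin precursor, was at 578, 1160.1 and 674 CPM against 323, 1712 and 949, and its log2 fold change of -0.08 did not pass. Fgf10, a growth factor of gland epithelium, did not pass either (log2 fold change -0.18). Leaving out male library 1 ended the calls of Crabp1 and Cxcl14 (edgeR adjusted p = 0.830 and 0.764), and leaving out the female library that of Cxcl14 (edgeR adjusted p = 0.0814), with log2 fold changes of -2.08, -2.11 and -1.50.

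Chemokine ligands were examined as a list of 21, of which 11 could be tested, with 2 higher, 2 lower and a median log2 fold change of -0.13. Ccl19, which attracts T cells and dendritic cells through CCR7, was at 193, 208 and 421 CPM against 51.7, 164 and 179 (log2 fold change 1.26, SE 0.35, edgeR adjusted p = 0.0171). All member values lay above all values of other fibroblasts. Ccl19 has near-identical copies on unplaced scaffolds that can take some of its reads. Its call was lost where no adventitial UMI was allowed (edgeR adjusted p = 0.574), without the female library (0.999) and without male library 1 (1.00). Ccl19 was called in 9 of 19 alternatives. Ccl8, a monocyte chemokine, was at 138, 476 and 0 CPM against 47.0, 113 and 114 (log2 fold change 1.46, SE 0.37, edgeR adjusted p = 0.00552), higher in 2 of 3 libraries. Ccl4, a leukocyte chemokine, fell by 2.23 on the log2 scale (SE 0.54, edgeR adjusted p = 0.00371).

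Cxcl12, the ligand of CXCR4 that retains leukocytes and progenitors in stroma, was at 3083, 2647 and 1769 CPM against 2295, 1213 and 1222. It was higher in 3 of 3 libraries but did not pass (log2 fold change 0.56, SE 0.32, edgeR adjusted p = 0.650). With total UMIs in place of TMM scaling it passed (edgeR adjusted p = 0.0120). The eotaxin Ccl11, the monocyte chemokine Ccl2 and the interferon-induced Cxcl10 gave log2 fold changes of -0.47, -0.26 and -0.13, none called. No UMI of Ccl21a, the lymphoid CCR7 ligand, was counted in members or in other fibroblasts.

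Genes of lymphoid stroma organizers, 20 in the list, gave 1 higher call, Ccl19, and none lower among 10 tested (median log2 fold change 0.17). Ltbr, the lymphotoxin beta receptor, and Tnfrsf1a, the TNF receptor, gave -0.30 (SE 0.48) and 0.38 (SE 0.36). The adhesion molecules Vcam1 and Icam1 gave -0.18 (SE 0.43) and 0.28 (SE 0.41). Tnfsf13b, the B cell survival factor BAFF, and Pdpn, a glycoprotein of reticular cells, gave 0.81 (SE 0.46) and 0.69 (SE 0.40). None of these 6 passed. Of 6 follicular dendritic and reticular cell markers, Ccl21a, Cr2, Fcer2a and Madcam1 had 0 UMIs in members. The limit is 14.2 CPM, which 3 UMIs over all members would give. Other fibroblasts held 1, 0 and 2 UMIs of Cr2, Fcer2a and Madcam1, so these zeros do not set members apart. The list summed to 295, 357 and 590 CPM in members against 122, 246 and 232. In members, Ccl19 and Pdpn made up this sum. Il7 had 0 UMIs in members, and Tnfsf11 had 1 UMI.

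UMIs of the receptor side were counted in the same libraries. Cxcr5 had 3 UMIs in 3 of 8298 cells of the female library, 1 of them with Ptprc, and 0 UMIs in the male libraries, which allows a UMI in up to 0.0537% and 0.0525% of cells and sets no limit on cells that express it at this depth. The B cell gene Ms4a1 was found in 8, 1 and 1 cells, Cd79a, a chain of the B cell receptor complex, in 19, 3 and 3, and its partner Cd79b in 94, 12 and 7.

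**Figure D3:**
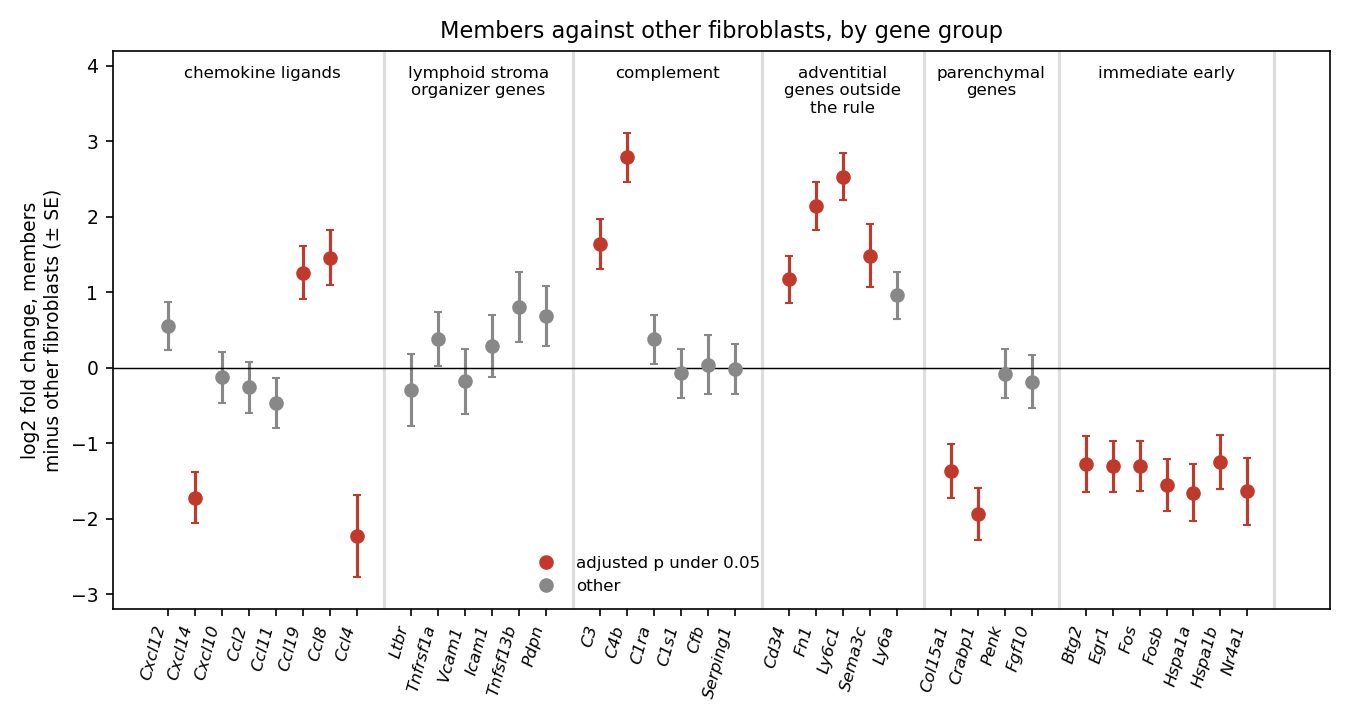
Points are log2 fold changes of Cxcl13 fibroblasts minus other fibroblasts with their SE, grouped by gene list, and red points passed an edgeR adjusted p of 0.05. Among the red points Ccl19, Ccl8, C3, C4b and 4 adventitial genes lie above 0, and Cxcl14, Ccl4, Crabp1, Col15a1 and 7 immediate early genes below 0, while no organizer gene drawn in its own group is red.

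Immediate early and dissociation genes, which cells switch on during tissue handling, were lower. Of 24 tested, 7 were lower and none higher, and 1 had a fold change above 0 (median -0.98). Fos was at 1529, 1636 and 2022 CPM against 3501, 4275 and 3622 (log2 fold change -1.31, SE 0.33, edgeR adjusted p = 0.00647), with no overlap. Egr1, Fosb and the heat shock gene Hspa1a gave log2 fold changes of -1.31, -1.55 and -1.66, each lower in 3 of 3 libraries. The summed level of the list was 11975, 14813 and 11291 CPM in Cxcl13 fibroblasts, 27739, 22586 and 22107 in other fibroblasts, and 11162, 9187 and 8427 in adventitial fibroblasts. The part of tissue handling in the comparison was not tested.

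The lowest genes against other fibroblasts included markers of mural cells, the smooth muscle cells and pericytes around vessels. Myh11, smooth muscle myosin, had 0 UMIs in members and 319 in other fibroblasts, at least 5.43-fold lower by the limit of 3 UMIs over the group, and the same holds for Gm13889 at 4.804-fold. Acta2, smooth muscle actin, had 1 UMI in members against 865, a ratio of 0.0226 (counting interval 0.000572 to 0.126). Tagln, Ccn2 and Capn6 also had 1 UMI each in members, with ratios of 0.0363, 0.0506 and 0.0551. Of the 5 mural markers, 4 (Rgs5, Notch3, Myh11 and Des) were at 0 in members and none in other fibroblasts, and their summed level was 0, 0 and 84.3 CPM against 389.8, 227 and 410.2.

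Of 9 macrophage markers 3 were at 0 in members, and the list summed to 30.1, 59.5 and 84.3 CPM against 390.1, 156 and 282. Cd74, the MHC class II chaperone, was in 2 member cells, at a ratio of 0.0610 (counting interval 0.00737 to 0.221). Endothelial markers summed to 48.2, 0 and 0 CPM against 62.5, 116 and 72.5. In male library 2 members stood higher in lymphocyte markers, with sums of 12.0, 59.5 and 421 CPM against 33.4, 18.2 and 25.1, and in epithelial markers, with 90.3, 268 and 1517 CPM against 293, 498 and 681. The part of these transcripts in the comparison was not tested. Mural and macrophage sums were thus lower in Cxcl13 fibroblasts than in other fibroblasts of every library. Without any cell carrying a mural marker UMI, a setting chosen after the data were seen, 35 genes were higher and 56 lower, and all 31 higher genes were called again.

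Other lists gave single members. Vegfd, a lymphatic growth factor, rose by 2.67 (SE 0.67, edgeR adjusted p = 0.00552) on 14 UMIs in members, and Gdf10, a BMP-like factor, by 1.39. Of 7 tested genes of the IGF-binding protein list, Igfbp5 was higher, while Igfbp3, Igfbp7 and the protease Pappa were lower. Igfbp5 stood at 2107, 416 and 169 CPM against 669, 156 and 220.4, so that male library 2 went the other way. The Wnt inhibitor Sfrp2 passed as higher on the female library alone, at 319, 0 and 0 CPM against 70.2, 89.1 and 75.3, and its fold change reversed without that library. Of 20 interferon-stimulated genes tested none was called (median log2 fold change 0.00), nor was any of 11 MHC class I genes (median -0.16), of 6 NF-kappaB pathway genes (median -0.75), 15 microfibril genes (median -0.19), 16 matrix proteases and inhibitors (median -0.35) or 6 lipid handling genes (median -0.52). Of 13 collagens outside the rule, Col15a1 alone was called, of 8 small proteoglycans Epyc, of 5 retinoid genes Crabp1, and of 13 inflammatory genes Cebpd, which was lower.

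Levels were also described over the number of Cxcl13 UMIs in a cell, within fibroblasts that met the other terms. In the 3 libraries summed, C3 was at 665 CPM in the 2478 cells with 0 UMIs, 1817 in the 78 cells with 1, 2771 in the 39 cells with 2, 3595 in the 44 cells with 3 to 5 and 3628 in the 36 cells with 6 or more. Crabp1 fell over the same classes, at 2182, 1962, 1185, 818 and 233 CPM. Cells with 1 Cxcl13 UMI, which the rule left out, thus lay between the cells with none and the members for both genes in the summed libraries. In male library 1 alone Crabp1 stood at 3006 CPM in these cells and at 2393 in the cells with none. In male library 2 alone C3 stood at 2850.4 CPM in these 17 cells, above the 2004 CPM of the 6 cells with 2 UMIs and the 1013 CPM of the 2 cells with 3 to 5. C4b went from 39.4 to 169, 174, 247 and 557 CPM and Fn1 from 131 to 583, 558, 675 and 1283. Serpinf1 stayed between 1150.4 and 1479.7 CPM. The median depths were 2217, 2063, 1689, 2655 and 2440 UMIs, which do not follow the order of the classes. In the female library alone, C3 stood at 525, 1648, 2651, 3649 and 3529 CPM and Crabp1 at 2143, 1824, 1405, 909 and 176, the same order except at the top of C3. The classes share cells with the rule, and no test was run.

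**Figure D4:**
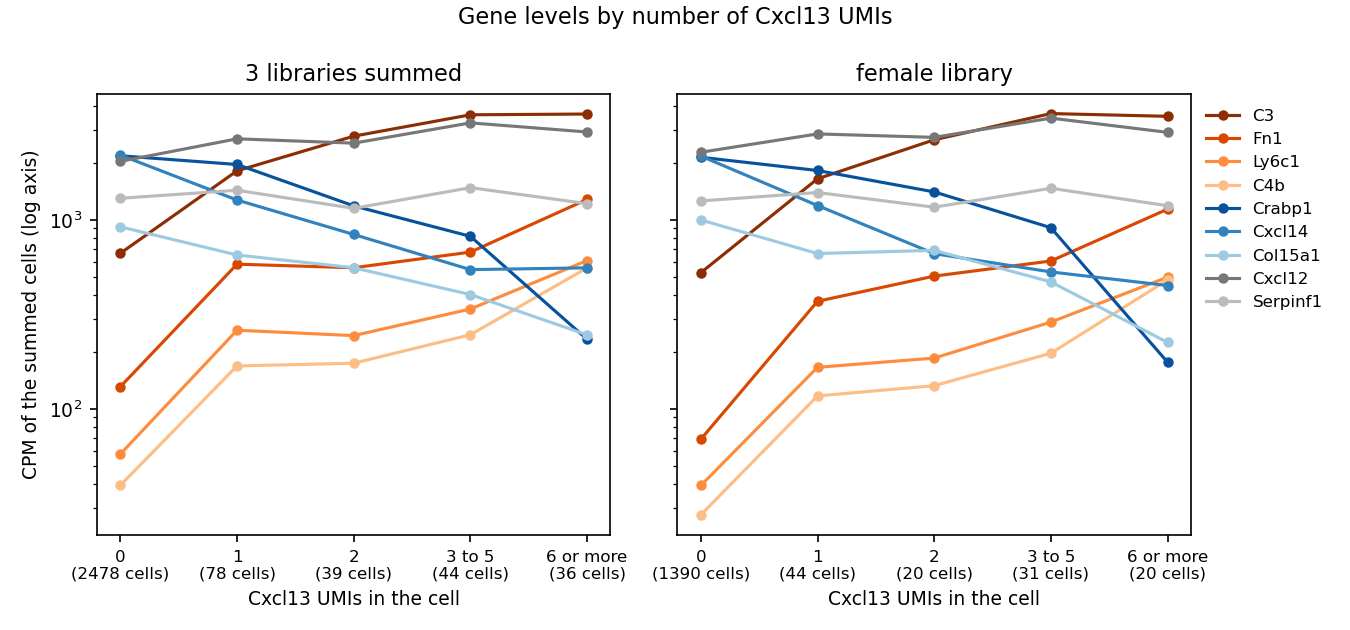
CPM of 9 genes, on a log axis, in fibroblasts summed by their number of Cxcl13 UMIs, for the 3 libraries together (left) and the female library (right). C3, Fn1, Ly6c1 and C4b are highest in the classes with most Cxcl13, Crabp1, Cxcl14 and Col15a1 are lowest there, and Serpinf1 is nearly level.

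Over these fibroblasts, 1505, 706 and 464 cells of the libraries, the 5 genes whose log levels followed Cxcl13 most closely were C3, Ly6c1, Fn1, C4b and Ly6a. Their mean Pearson r over the 3 libraries was 0.272, 0.267, 0.255, 0.245 and 0.194, a description over cells that share libraries and depth. In sparse counts such values are low.

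Thinned to 1000 UMIs, C3 was found in 87.4% of 103 members and in 29.0% of 2245 other fibroblasts, and Crabp1 in 29.1% and 60.2%. Cells of 1 library are not replicates, so these shares carry counting error only.

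Against the 250 adventitial fibroblasts, which had at least 2 UMIs of the adventitial genes, the parenchymal and adventitial genes went in the opposite directions. Here 579 genes were tested, with 33 higher (5.7%) and 45 lower (7.77%) in Cxcl13 fibroblasts, 13.5% in all. Without the female library 8 were higher and 9 lower, and without male library 1 there were 44 and 72. The same members enter this comparison and the one above, so the comparisons are not independent. Parenchymal genes were higher (5 of 8 tested, median log2 fold change 1.58 against 0.02 over all genes), and adventitial genes outside the rule were lower (6 of 8, median -1.01). Penk was at 578, 1160.1 and 674 CPM against 86.1, 179.5 and 156 in adventitial fibroblasts (log2 fold change 2.59, SE 0.32, edgeR adjusted p = 4.72e-09). Crabp1 and Cxcl14 were higher by 2.03 (SE 0.33) and 1.91 (SE 0.31). Cxcl12 rose by 1.63 (SE 0.18, edgeR adjusted p = 4.48e-10), at 1017, 808 and 506 CPM in adventitial cells.

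The lipid carriers Apod and Apoe rose by 1.79 (SE 0.16) and 1.48 (SE 0.18), the growth factor Igf1 by 2.09 (SE 0.32) and C4b by 1.73 (SE 0.32), with Igf1 higher in 2 of 3 libraries. C3 was at 3391, 2663 and 2822 CPM in adventitial fibroblasts and gave a log2 fold change of 0.05 (SE 0.16, edgeR adjusted p = 0.883). Tmem176b, Steap4 and Sned1 were also among the 6 largest increases, at 2.51, 2.30 and 2.15. Among the lower genes, the microfibril protein Mfap5 was at 235, 357 and 84.3 CPM against 1648, 2514 and 1985 (log2 fold change -2.97, SE 0.24, edgeR adjusted p = 3.3e-14). The sphingomyelinase Smpd3, the proteoglycan Aspn, the annexin Anxa3, Sema3c and Fndc1 gave log2 fold changes of -4.68, -3.71, -3.63, -3.12 and -2.69. Fbn1, the microfibril protein fibrillin, gave -2.15 (SE 0.24) and Fn1 gave -1.50 (SE 0.19). Ly6c1 gave -0.91 (SE 0.28, edgeR adjusted p = 0.0175), was lower in 2 of 3 libraries, and passed in 5 of 18 alternatives. Penk, Cxcl12, Apod, Mfap5, Anxa3 and Fbn1 passed in all 18. Without the female library Crabp1, Cxcl14, Sned1, Sema3c, Fn1, Cd34, Fndc1 and Ly6c1 no longer passed. For Fn1 and Cd34, Cxcl13 fibroblasts thus stood between the other and the adventitial fibroblasts in all 3 libraries. The cutoff on Pi16, Dpp4 and Ackr3 separates members from adventitial fibroblasts. This order therefore depends on the rule and is a description.

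Cxcl13 was not limited to cells below the adventitial cutoff. Among adventitial fibroblasts 54 of 166, 3 of 32 and 2 of 52 cells had a Cxcl13 UMI, and 34, 3 and 1 had at least 2. Over all fibroblasts without Pdgfrl and Fxyd6, at least 2 Cxcl13 UMIs were found in 3.58% of 2486 cells with no adventitial UMI, 15.9% of 189 with 1, 16.2% of 99 with 2 to 4 and 14.6% of 151 with 5 or more. The medians of depth were 2143, 2999, 2543 and 3709 UMIs. The female library set most of the upper classes, with 17.8% of 118 cells at 5 or more, while the male libraries had 1 of 12 and 0 of 21.

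The Pdgfrl Fxyd6 fibroblasts, 44 cells (37, 6 and 1) with at least 2 UMIs of these genes together, had no Cxcl13 UMI. The limit of 3 counts allows a UMI in up to 8.11% of the cells of the female library (exact upper bound 9.49%), which does not limit the cells that express the gene. Against them 298 genes were tested, with 9 higher (3.02%) and 22 lower (7.38%), 10.4% in all, and the same members enter again. Higher in Cxcl13 fibroblasts were Fn1 (log2 fold change 3.76, SE 0.63), Plac8 (3.74, SE 0.56), C3 (3.57, SE 0.47), Sned1 (3.53, SE 0.62), Cxcl12 (1.94, SE 0.41) and Ly6a (1.79, SE 0.43). C3 was at 193, 555 and 0 CPM in Pdgfrl Fxyd6 fibroblasts. Lower were the matrix genes of that group. Mfap4 was at a ratio of 0.00830 (counting interval 0.00169 to 0.0246) over the summed libraries, Cilp, a cartilage intermediate layer protein, was at least 34.3-fold lower, and the elastic fibre gene Eln was at 108, 89.2 and 84.3 CPM against 1838, 1849 and 4802. Mgp, an inhibitor of calcification, gave a log2 fold change of -4.78 (SE 0.42), Itgbl1, which has integrin-like repeats, -4.69 and the protease inhibitor Cst3 -3.25. Without the female library 0 genes were higher and 5 lower of 155 (16 at an unadjusted p under 0.05), and without male library 1 there were 4 and 8. Of the 9 higher genes 0 were called again in either setting, so that Fn1, Plac8, C3, Sned1, Cxcl12 and Ly6a no longer passed or could not be tested, and of the 22 lower genes 4 and 3 were. Male library 2 gave a single Pdgfrl Fxyd6 cell. Without that library 37 genes were higher and 45 lower of 1133, and without TMM scaling, which shifted the median of all genes from -0.01 to 0.21, 25 were higher and 25 lower.

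**Figure D5:**
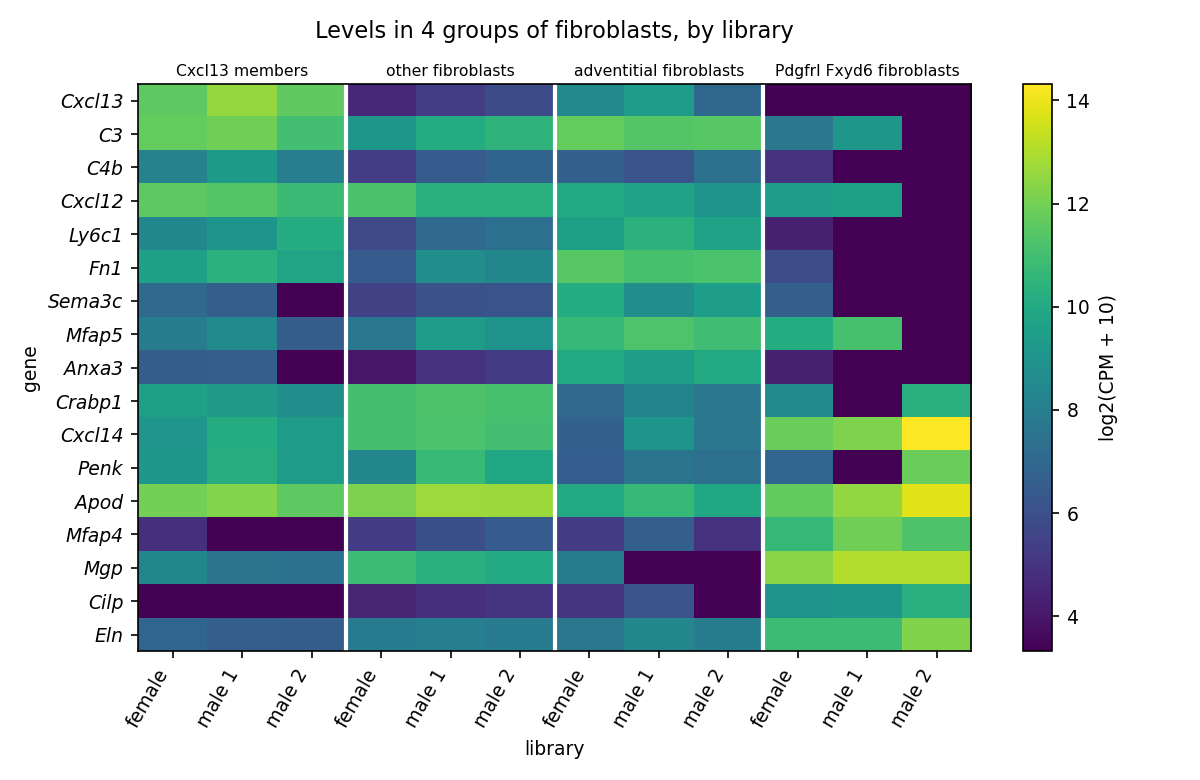
Colour gives log2(CPM + 10) of 17 genes in 4 groups of fibroblasts, by library, and the darkest cells are at 0 UMIs. Cxcl13 fibroblasts share high C3 with adventitial cells, have Crabp1, Cxcl14 and Fn1 at levels between the other and the adventitial fibroblasts, and have little or none of the Mfap4, Mgp, Cilp and Eln of the Pdgfrl Fxyd6 cells. The adventitial cutoff of the rule separates members from adventitial fibroblasts.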

How the data were processed

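Single cell RNA sequencing (10x Genomics droplets) was made from 3 LG libraries, 1 female and 2 male. The authors deposited, for each library, a matrix of UMI counts per gene and called barcode and a matrix over all barcodes, as whole numbers without normalization. Per the submitters' processing notes, reads were aligned with Cell Ranger 6.1.2 to mm10. The annotation release is not given in the sources used here. The study's removal of ambient RNA and doublets had not been applied to the deposited counts, so kept barcodes can include cells that the study left out.

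Barcodes were kept above 500 UMIs, above 200 genes and below 15% mitochondrial UMIs. Members and gene lists were chosen with earlier results of these data known. Counts were summed per library and group, without 144 listed tear-product genes and 13 mitochondrial genes. The 15 genes of the rule stayed in the totals behind the tests and levels, but were not tested. Genes were filtered by filterByExpr and scaled by TMM, and edgeR 4.0.16 (R 4.3.3) quasi-likelihood tests with Benjamini-Hochberg adjustment took the library as a block, since the groups of 1 library come from 1 pool of glands. The libraries are separate pools. With the block, p-values measure how the difference within a library varied over these 3. They rest on 2 residual degrees of freedom and on variance estimates drawn partly from all genes. The scripts were tested on simulated data. Standard errors were the log2 fold change over the root of the F statistic.

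Genes are named by a rule of size: the 12 highest and 12 lowest called genes against other fibroblasts (6 and 6 in the further comparisons) that moved the same way in 3 of 3 libraries with at least 30 UMIs where higher, the label's markers, up to 4 called members and set defining members of each list, and the 5 genes most correlated with Cxcl13. Where the text names a further gene, it was chosen after its values were seen. Of the 12 lowest against other fibroblasts, Pakap, Rasgrp2, Tmem204, Ndufa4l2 and Adamts9, each with 1 or 2 UMIs in members, are not described singly. Thinning drew 1000 UMIs per cell. Intervals are exact (Clopper-Pearson or Poisson) at 95% and cover counting error only, and the limit of a count of 0 is 3 counts. Doublet scores came from scanpy 1.11.5, and cells with the highest scores were removed in an alternative only. Alternatives were DESeq2 1.42.0 and other scalings, filters, thresholds and left-out libraries. Some genes that this rule names are not reported here.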

Additional observations from a re-analysis of the deposited data

Results flagged for a closer look

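Sfrp2, a secreted Wnt inhibitor, went in opposite directions by library. Cxcl13 fibroblasts minus other fibroblasts differed by 249 CPM in the female library, by -89.1 CPM in male library 1 and by -75.3 CPM in male library 2. The difference between the libraries was not tested, and sex coincides with the sequencing core and day.

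In male library 1, 12 Cxcl13 UMIs in 3 barcodes lay among called barcodes that failed the cell filters, which no comparison used.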

How the results depend on the processing

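Counts are given as genes higher, then lower, in Cxcl13 fibroblasts. The cause of these shifts was not tested. Against other fibroblasts (31 and 62) there were 53 and 94 without TMM, 13 and 18 with DESeq2, 11 and 23 with free RNA subtracted, 56 and 83 with Cxcl13 at 1 or more UMI, 22 and 36 at 3 or more, 11 and 34 in cells matched on UMI total (445 genes tested), and 24 and 40 at a mitochondrial share under 5%. Settings added after seeing the data gave 24 and 28 with a fibroblast sum of 10 or more and 21 and 32 with no adventitial UMI. Left-out libraries gave 4 to 67 and 5 to 80. Against adventitial fibroblasts (33 and 45) there were 17 and 22 with DESeq2, 5 and 11 with free RNA subtracted, 18 and 23 above 1000 UMIs, 64 and 63 at 1 or more Cxcl13 UMI, and 18 and 24 in matched cells, with 8 to 44 and 9 to 72 for left-out libraries. Against Pdgfrl Fxyd6 fibroblasts (9 and 22) there were 25 and 25 without TMM, 15 and 24 with DESeq2, 22 and 36 without a filter on low counts, 20 and 32 with tear-product and mitochondrial genes kept, 17 and 20 with free RNA subtracted, 22 and 38 without high doublet scores, 17 and 26 at a mitochondrial share under 5%, 21 and 35 above 1000 UMIs, 20 and 20 at 3 or more Cxcl13 UMIs, 36 and 32 at 1 or more, and 4 and 10 in matched cells. The added settings gave 21 and 36 without mural UMIs, 23 and 34 with a fibroblast sum of 10 or more and 23 and 36 without the cells of the highest UMI totals, and left-out libraries 0 to 37 and 5 to 45.

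Without the library block, 8 and 13 genes were called against other fibroblasts, 6 and 15 against adventitial and 6 and 17 against Pdgfrl Fxyd6 fibroblasts, and C3 against other fibroblasts was not called (log2 fold change 1.49, edgeR adjusted p = 0.153).

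The share of Cxcl13 fibroblasts was 2.90%, 3.18% and 0.947% at 3 or more Cxcl13 UMIs, 6.54%, 7.15% and 5.30% at 1 or more, and 1.83% and 2.89% after thinning in the female library and male library 1.

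Fold changes (log2) against other fibroblasts that reversed were those of Ccl2 (0.26 at 1 or more Cxcl13 UMI), Cxcl10 (0.069 without TMM, 0.045 without high doublet scores, 0.13 at 3 or more Cxcl13 UMIs, 0.098 at 1 or more, 0.062 without mural UMIs, and -1.10 to 0.21 over left-out libraries), Penk (0.11 without TMM, 0.34 at 1 or more Cxcl13 UMI, 0.13 in matched cells, and -0.73 to 0.12 over left-out libraries), Sema3c (-0.0048 to 1.64 over left-out libraries), Sfrp2 (-1.61 with DESeq2, and -7.35 to 1.64 over left-out libraries), Tnfrsf1a (-0.014 to 0.53 over left-out libraries) and Vcam1 (0.13 with no adventitial UMI).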
